A study of Mus musculus with 6 samples.

Results

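The unfolded protein response (UPR) and the ATF4 amino acid response were followed in mouse skin fibroblasts through 38 genes of the 22162 in the deposited table. The genes were taken by name from a list of known members of these pathways, 22 for the UPR arm and 16 for the ATF4 arm. The rule used no measured value, but the list was drawn up with earlier results of these data known. All 38 were found in the table. Of these, 37 were tested because they reached 1 c.p.m. in 3 or more libraries, and Derl3 did not.

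The libraries are poly(A) RNA-seq of MSFs, primary dorsal skin fibroblasts of FASST mice on the FVB/N background. These cells carry Cre-ERT2 under the pro-alpha 2(I) collagen promoter and a p27Kip1 IRES GFP cassette behind a lox-stop-lox at ROSA26, so that tamoxifen (TAM) switches on p27Kip1, an inhibitor of the cell cycle. The 3 TAM samples received 10 µM TAM for 48 h and were labelled senescent, and the 3 EtOH samples received the ethanol vehicle and were labelled non-senescent. Both groups carry the transgenes and were grown at 3% oxygen. No library came from cells without the transgenes that were given TAM, so the responses to TAM itself and to p27Kip1 cannot be told apart. The methods describe 1 MSF line from 1 mouse, so the p values measure the spread between cultures or libraries of that line, which may be technical. In these bulk libraries, fewer cells that express a gene and less RNA per cell also cannot be told apart.

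The UPR is the reaction of the endoplasmic reticulum (ER) to a load of unfolded protein. The sensors IRE1 (Ern1), PERK (Eif2ak3) and ATF6 lie in the ER membrane. IRE1 splices the Xbp1 mRNA, ATF6 is cut to release a transcription factor, and both raise genes for chaperones and for ER-associated degradation. PERK phosphorylates the translation factor eIF2α, which lowers protein synthesis and favours translation of ATF4. Other kinases reach eIF2α when amino acids or haem are short or when viral RNA is present, and ATF4 then raises genes for amino acid synthesis, uptake and tRNA charging. Fibroblasts secrete much collagen and rely on this folding machinery.

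The promoter stretches below show DNA letters known to be read by these pathways, so that the members can be set beside the sequences that are known to drive them. They are from RefSeq on the GRCm38.p6 build, which differs from the mm9 build of the deposited table, and they were searched from 250 bases before to 50 bases after each start, on both strands. Such a window was available for 34 members (19 UPR and 15 ATF4) and for 27025 genes in all, and not for Atf6, Manf, Hyou1 and Slc7a5. The ER stress response element (ERSE, CCAAT and CCACG with any 9 bases between them) was in the window of 9 members, all of the UPR arm, against 37 of all genes (0.137%). The 9 were Hspa5, Hsp90b1, Pdia6, Calr, Canx, Dnajc3, Creld2, Syvn1 and Derl3. ERSE-II (ATTGG and CCACG with any 1 base between them), which shares CCACG with ERSE, was in the window of Herpud1 alone among the members and in that of 0.0444% of all genes. The CARE letters TGATGNAA, which ATF4 with a C/EBP partner is known to bind, were found in 6 members (Herpud1, Trib3, Chac1, Asns, Slc7a11 and Nupr1) and in 4.51% of all genes. The UPR element TGACGTGG, which also holds CCACG on its other strand, was in no member and in 0.714% of genes. The printed stretches are read 5′ to 3′ on the gene's strand, with the matching letters in capitals, and a match in the opposite orientation shows as the reverse complement.
Hspa5: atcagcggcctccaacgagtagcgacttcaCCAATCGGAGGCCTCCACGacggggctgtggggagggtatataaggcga
Hsp90b1: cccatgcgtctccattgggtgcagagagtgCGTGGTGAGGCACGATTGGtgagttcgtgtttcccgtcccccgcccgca
Pdia6: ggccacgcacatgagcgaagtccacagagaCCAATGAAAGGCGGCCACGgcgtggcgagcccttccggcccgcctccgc
Syvn1: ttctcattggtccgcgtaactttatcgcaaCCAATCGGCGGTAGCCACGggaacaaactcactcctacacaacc
Herpud1: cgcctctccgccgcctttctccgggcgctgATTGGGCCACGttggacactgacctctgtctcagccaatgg
Chac1: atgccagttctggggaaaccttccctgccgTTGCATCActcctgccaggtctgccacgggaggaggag
Nupr1: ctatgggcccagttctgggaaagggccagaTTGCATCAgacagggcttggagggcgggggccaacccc
Asns: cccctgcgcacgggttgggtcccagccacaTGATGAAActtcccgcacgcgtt
The stretches lie at chr2:34771995-34772073 (plus strand) for Hspa5, chr10:86705503-86705581 (minus) for Hsp90b1, chr12:17266461-17266539 (plus) for Pdia6 and chr19:6046502-6046575 (plus) for Syvn1. Those of Herpud1 and Chac1 lie at chr8:94386347-94386417 and chr2:119351019-119351086 on the plus strand, and those of Nupr1 and Asns at chr7:126625543-126625610 and chr6:7693210-7693262 on the minus strand. These matches are letters in a window, and no binding was measured here. The members were chosen as known genes of pathways that read these letters, so shares above those of all genes are no independent result.

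The deposited values are normalized counts, with 16.2 normalized counts taken as 1 c.p.m.. The libraries summed to between 14952367 and 17314953 normalized counts. Cdkn1b, the gene of p27Kip1, was at 1427, 3074 and 1853 normalized counts in the EtOH samples and at 1699, 1520 and 1630 in the TAM samples, so this row did not separate the groups, and the sources used here do not say if it includes transgene reads. All 10 fibroblast markers were present, summing to between 1278753 and 1594317 normalized counts in the TAM libraries and to between 1962055 and 2082633 in the EtOH libraries. Their log2 fold changes (TAM over EtOH) ran from −2.38 for Lum to 1.36 for Thy1, with 7 of 10 below 0. Marker sums of other cell types were far lower. Macrophage markers summed to 213.8 to 554.4 in the EtOH and 389.7 to 556.2 in the TAM libraries, with Emr1 and Tyrobp at 0 in every library. Of 5 macrophage markers tested, 2 had a log2 fold change below 0. For 2, among them Lyz2 (46.77, 35.25 and 62.87 in EtOH and 103.1, 143.3 and 159.5 in TAM), all TAM values lay above all EtOH values, as for 9.19% of all genes. The sums were 66.4 to 133.1 for keratinocytes (Krt1 at 0), 219.4 to 811.0 for melanocytes and 12.2 to 338.0 for adipocytes (Lep at 0). Endothelial markers summed to 160.3 to 281.6 in the EtOH libraries and to 76.4 to 91.2 in the TAM libraries, with Cldn5 at 0. Most of the difference between these sums was Kdr (204.7, 68.7 and 116 in EtOH and 4.84, 7.53 and 14.0 in TAM cells), while Egfl7 was at 34.2 to 53.4 and 35.8 to 56.1 and Pecam1 and Cdh5 were at most 11.3 in any library. The limma adjusted p of Kdr was 0.0608, and 0.0488 with the replicate number in the model. The part of these differences in the results below was not tested. Replicate 2 of each group stood apart from the other replicates for some members. For Ddit3 EtOH replicate 2 was 6.01 times the next EtOH value, and for Psat1 TAM replicate 2 was 4.42 times the next TAM value. For Hspa5 both libraries numbered 2 were the highest of their group (2.39 times the next in EtOH and 1.43 times in TAM).

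All 37 tested members had a lower mean log2 level in TAM than in EtOH cells, and none was called at an adjusted p under 0.05. Without TAM replicate 3, the sign turned for 3 of 37 (Chac1, Phgdh and Slc7a11). Among all 11877 genes tested, 53.8% had a log2 fold change below 0. The median log2 fold change (TAM over EtOH, on log2(normalized counts + 1)) was −0.51 over the 21 tested UPR members and −0.67 over the 16 ATF4 members, against −0.03 over all genes tested. It was −1 or lower for 10 of 37 members (5 in each arm) and for 3.44% of all genes. The 3 TAM values lay below the 3 EtOH values for 21 of 37 members, 15 in the UPR arm and 6 in the ATF4 arm, and for 11.4% of all genes. For no member did they lie above, as they did for 9.19% of all genes.

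In limma without the replicate number, 0 of 37 members were called in either direction, where 0.0758% of all genes were called lower and 0.168% higher in TAM cells. The smallest adjusted p was 0.103, for Dnajb9. At an unadjusted p under 0.05, 16 members were lower (11 UPR, 5 ATF4) and 0 higher, against 6.70% and 6.67% of all genes. Same-numbered libraries deviated together, and when that number entered the model as a block, Herpud1 alone was called (adjusted p = 0.0374), where 0.615% of all genes were called lower and 1.00% higher. With this block 21 members were lower (14 UPR, 7 ATF4) and 0 higher at an unadjusted p under 0.05, against 8.32% and 8.64% of all genes. An exact permutation test of any single gene cannot go below p = 0.1 with 3 samples against 3.

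**Figure D1:**
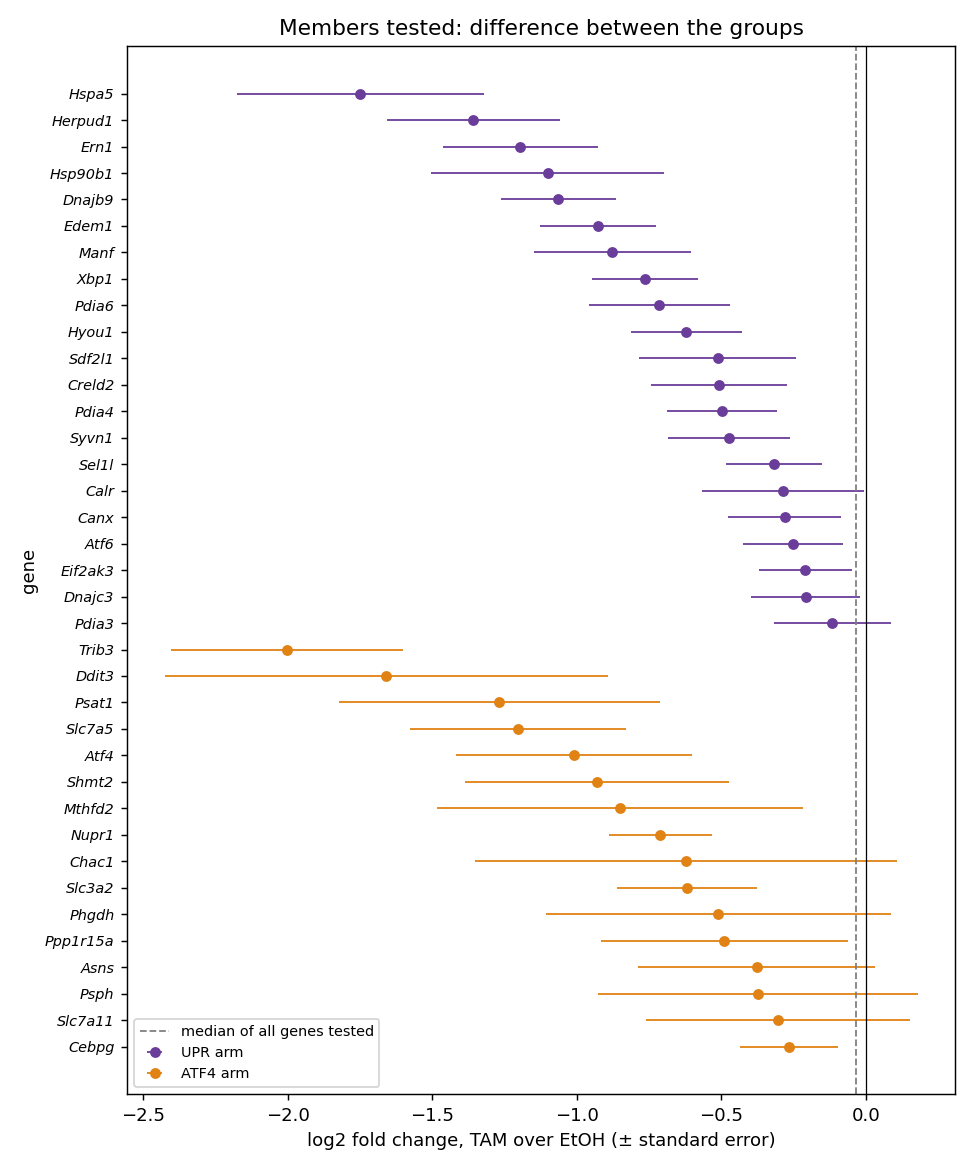
Log2 fold change (TAM over EtOH, on log2(normalized counts + 1)) of each of the 37 tested members with its standard error from limma, by arm. All points lie below 0, from −2.004 (Trib3) to −0.12 (Pdia3), and the median over all genes tested was −0.03.

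Among the sensors, the mRNA of IRE1 had the lowest log2 fold change. Ern1 (chromosome 11, 106255964 to 106349166, mm9) was at 1597, 2560 and 2512 normalized counts in EtOH replicates 1, 2 and 3 and at 798, 844 and 1267 in TAM replicates 1, 2 and 3. The groups did not overlap, and the log2 fold change was −1.20 (SE 0.27, limma adjusted p = 0.151, n = 3 per group). Eif2ak3, which encodes PERK, was at 601, 688 and 748 in EtOH and at 599, 586 and 570 in TAM cells, a narrow gap between non-overlapping groups (log2 fold change −0.21, SE 0.16, adjusted p = 0.628). Atf6 was at 3417, 2743 and 3276 in EtOH and at 2738, 2804 and 2367 in TAM cells, and its groups overlapped (−0.25, SE 0.17, adjusted p = 0.583). Xbp1, the substrate of IRE1 (chromosome 11, 5420662 to 5425896, mm9), was at 1751, 1636 and 1765 in EtOH and at 886, 1248 and 933 in TAM cells. All 3 TAM values were lower than the EtOH values (−0.76, SE 0.18, adjusted p = 0.174). The table gives 1 value for each gene, so spliced and unspliced Xbp1 were not separated.

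Among the chaperones, Hspa5 and Hsp90b1 had the largest differences in normalized counts and EtOH means that were the highest of all members per kilobase. Hspa5 encodes BiP, the Hsp70 chaperone of the ER lumen (chromosome 2, 34627490 to 34632051, mm9), and was at 22484, 60659 and 25378 normalized counts in EtOH and at 9259, 13205 and 7445 in TAM cells. EtOH replicate 2 was 2.39 times the next EtOH value, and all TAM values lay below all EtOH values (log2 fold change −1.75, SE 0.43, adjusted p = 0.182). With the replicate block the adjusted p was 0.0501. Hsp90b1, the Hsp90 of the ER, was likewise highest in EtOH replicate 2, with 21736, 52470 and 24124 in EtOH and 10631, 19069 and 13746 in TAM cells (−1.10, SE 0.40, adjusted p = 0.304). Without EtOH replicate 2 its log2 fold change was −0.70 and that of Hspa5 −1.30. Of the exon bases of Hsp90b1, 10.3% overlap genes on the other strand, and the strand setting of the counting was not given in the sources used here. On the same strand 5.38% overlap other genes. A stretch of 8.0% of its transcript matches 1 other place in the genome, where reads may be split.

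Of the co-chaperones, Dnajb9 (ERdj4), a J-domain protein known as a target of XBP1, had the smallest adjusted p of the members in the fit without the block, while Herpud1 had it with the block. It was at 957, 1482 and 1168 in EtOH and within 538 to 581 in TAM cells (577, 538 and 581), so the TAM values were close together and all below the EtOH values (−1.07, SE 0.20, adjusted p = 0.103). Hyou1, a large Hsp70-related chaperone, was at 2937, 3199 and 3277 in EtOH and at 1791, 2550 and 1851 in TAM cells (−0.62, SE 0.19, adjusted p = 0.247). Dnajc3 (p58IPK) and Sdf2l1 had overlapping groups, with Dnajc3 at 2325, 2076 and 2545 in EtOH and 1689, 2361 and 1997 in TAM cells and Sdf2l1 at 163, 280.5 and 234 and at 126, 183 and 159.

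The disulfide isomerases and lectin chaperones had log2 fold changes from −0.71 to −0.12. Pdia6, an isomerase, was at 3716, 3001 and 3272 in EtOH and at 1749, 2839 and 1663 in TAM cells (−0.71, SE 0.24, adjusted p = 0.279). Pdia4 was at 2522, 3653 and 2742 in EtOH and at 2151, 2123 and 1970 in TAM cells, and for both isomerases the groups did not overlap (−0.50, SE 0.19, adjusted p = 0.324). Pdia3, the isomerase that works with calnexin and calreticulin, overlapped between groups, at 12410, 13337 and 11395 in EtOH and 11749, 12875 and 9794 in TAM cells (−0.12, SE 0.20, adjusted p = 0.849). Under quantile normalization its log2 fold change was 0.0036, the opposite sign. Calr and Canx, the lectin chaperones that hold glycoproteins, overlapped too, with TAM replicate 2 the highest TAM value for each. Calr was at 14539, 17896 and 13409 in EtOH and at 10582, 17756 and 10242 in TAM cells, and Canx at 8238, 9007 and 9664 and at 6684, 8756 and 6827.

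In ER-associated degradation, which takes misfolded protein out of the ER, all TAM values lay below all EtOH values for the 4 tested members, as for 11.4% of all genes. Herpud1 organises the degradation complex (chromosome 8, 96910338 to 96919277, mm9) and carries both the ERSE-II and the CARE letters in its promoter. It was at 1205, 2387 and 1435 in EtOH and at 539, 818 and 554 in TAM cells, a drop in each of the 3 pairs of same-numbered libraries. Its log2 fold change was −1.36 (SE 0.30, adjusted p = 0.147), and with the block it fell by the same amount with an SE of 0.17 (adjusted p = 0.0374). The call was lost with the block when replicate 1 or replicate 3 of both groups was left out (adjusted p = 0.0672 and 0.204), and held without replicate 2 (0.0118). Edem1, a lectin that picks out misfolded glycoproteins, was at 1564, 1834 and 2324 in EtOH and at 897, 1109 and 974 in TAM cells (−0.93, SE 0.20, adjusted p = 0.141). Sel1l and Syvn1 form the ubiquitin ligase core. Sel1l was at 3937, 4153 and 4771 in EtOH and at 3580, 3207 and 3512 in TAM cells, and Syvn1 at 1081, 1667 and 1125 and at 855, 994 and 889. Derl3, a derlin of the same complex, was at 7.56, 114 and 12.3 in EtOH and at 7.88, 2.50 and 10.5 in TAM cells, so its mean rested on EtOH replicate 2, and it was not tested.

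Manf and Creld2 are small ER proteins that are secreted under stress. Manf was at 3224, 3220 and 2467 in EtOH and at 1415, 2354 and 1239 in TAM cells (−0.88, SE 0.27, adjusted p = 0.25). A stretch of 14.1% of its transcript matches 1 other place in the genome, where reads may be split. Creld2 was at 676, 980 and 676 in EtOH and at 423, 606 and 605 in TAM cells (−0.51, adjusted p = 0.411). For both genes the TAM values lay below the EtOH values. The 8 tested UPR members with ERSE letters in their promoter had log2 fold changes from −1.75 (Hspa5) to −0.21 (Dnajc3).

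**Figure D2:**
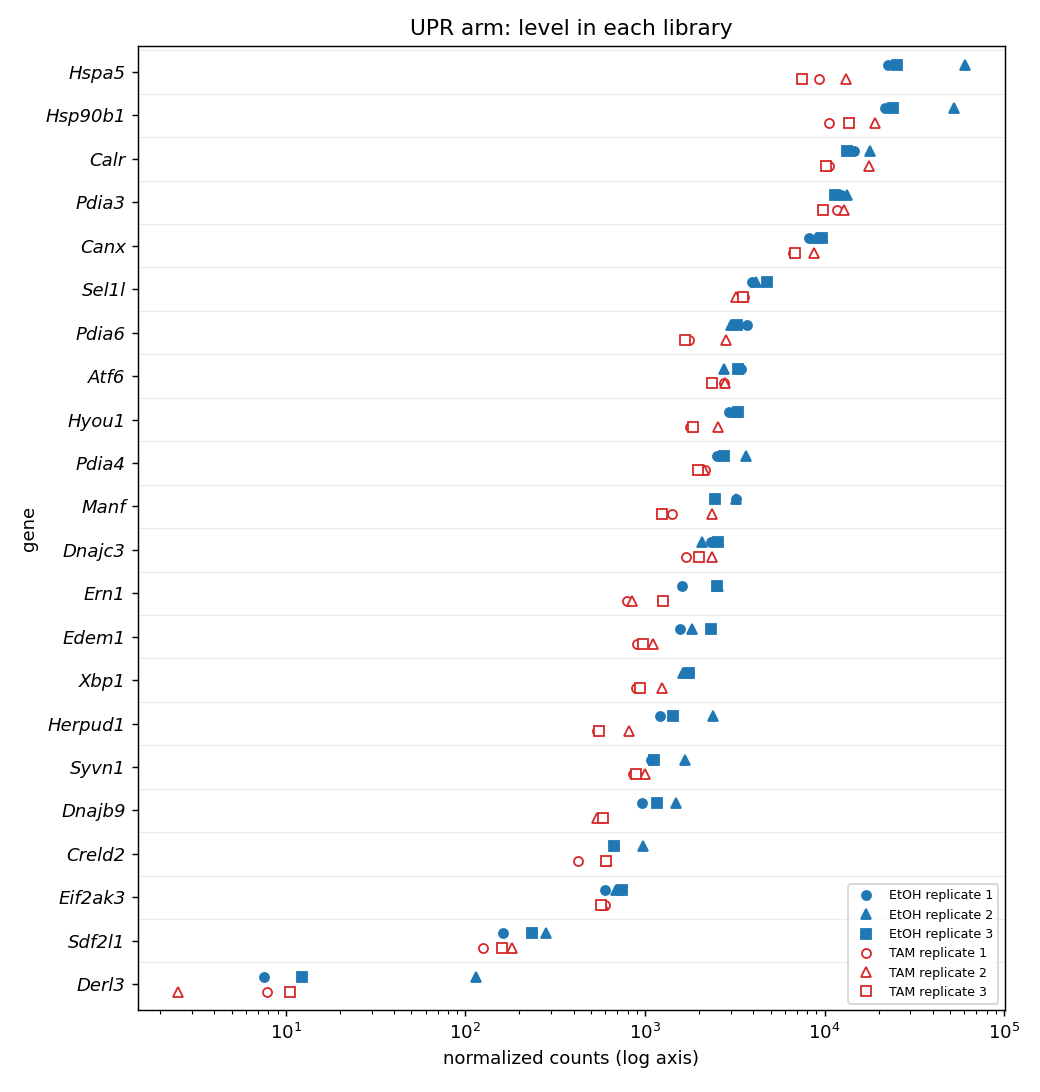
Normalized counts (log axis) of the 22 UPR members in each of the 6 libraries, EtOH filled and TAM open, with 1 marker shape for each replicate number. The TAM markers lie left of all EtOH markers for 15 of the 21 tested genes, and EtOH replicate 2 lies far to the right for Hspa5, Hsp90b1 and Derl3.

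In the ATF4 arm, the transcription factors had non-overlapping groups but were spread by EtOH replicate 2. Atf4 itself, the factor that names the arm (chromosome 15, 80085614 to 80087970, mm9), was at 8249, 21286 and 7555 in EtOH and at 5654, 6393 and 4488 in TAM cells (log2 fold change −1.01, SE 0.41, adjusted p = 0.351). EtOH replicate 2 was 2.58 times the next EtOH value. Ddit3 encodes CHOP, a factor that promotes cell death in prolonged stress (chromosome 10, 126727830 to 126733344, mm9), and was at 2471, 23783 and 3957 in EtOH and at 1587, 2040 and 2280 in TAM cells. Here EtOH replicate 2 was 6.01 times the next, and the SE was the widest in the arm (−1.66, SE 0.77, adjusted p = 0.411). Without EtOH replicate 2 the log2 fold change was −0.68 for Ddit3 and −0.53 for Atf4. ATF4 is controlled at translation, which these libraries do not measure.

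The other regulators did not show that library standing apart. Nupr1, a small stress-induced chromatin protein, was at 5139, 5118 and 6489 in EtOH and at 3606, 3139 and 3437 in TAM cells (−0.71, SE 0.18, adjusted p = 0.183). Cebpg, a dimer partner of ATF4, was at 643, 677 and 623 in EtOH and at 616, 539 and 469 in TAM cells (−0.27, SE 0.16, adjusted p = 0.564).

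Trib3 had the lowest log2 fold change of the members with all 6 libraries, and Ddit3 was lower when EtOH replicate 1, EtOH replicate 3 or TAM replicate 3 was left out. It encodes a pseudokinase known to be induced by ATF4 and CHOP and to feed back on them (chromosome 2, 152163158 to 152169768, mm9). It was at 2726, 2319 and 2854 in EtOH and at 1064, 777 and 337 in TAM cells, so the EtOH values were close together and the TAM values all lay below them (−2.004, SE 0.40, adjusted p = 0.123). Ppp1r15a encodes GADD34, which brings a phosphatase to eIF2α, and was at 1097, 2725 and 948 in EtOH and at 954, 1400 and 765 in TAM cells (−0.49, and −0.017 without EtOH replicate 2). Chac1, which degrades glutathione, was at 271, 166 and 242 in EtOH and at 111, 486 and 54.3 in TAM cells, so TAM replicate 2 was above every EtOH value.

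For the 6 enzymes of amino acid and one-carbon metabolism, TAM replicates 1 and 3 lay below their same-numbered EtOH libraries and TAM replicate 2 above its own. Psat1, the serine synthesis transaminase (chromosome 19, 15979168 to 16021827, mm9), was at 2665, 2742 and 2341 in EtOH and at 653, 2889 and 648 in TAM cells. TAM replicates 1 and 3 were close to each other and TAM replicate 2 was 4.42 times the next TAM value, above all EtOH values (−1.27, SE 0.56, adjusted p = 0.387). Without TAM replicate 2, Psat1 was called (log2 fold change −1.98, adjusted p = 0.0384), where 0.0342% of all genes were called lower and 0.00854% higher. Mthfd2, a mitochondrial one-carbon enzyme, was at 937, 678 and 912 in EtOH and at 329, 1389 and 216 in TAM cells, and Shmt2, which feeds it from serine, at 2576, 2368 and 3118 and at 807, 3003 and 1133. Psph and Phgdh complete serine synthesis and Asns makes asparagine. Psph was at 566, 253 and 488 in EtOH and at 206, 746 and 209 in TAM cells, and Asns at 2280, 1145 and 1944 and at 1215, 2270 and 840. Phgdh was at 1585, 1164 and 1392 in EtOH and at 848, 2546 and 411 in TAM cells, but 96.6% of its transcript matches 10 other places in the genome, so its counts are uncertain.

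For each of these enzymes TAM replicate 2 was the highest TAM library. It was above every EtOH value for Psat1, Mthfd2, Psph and Phgdh and below the highest EtOH value for Shmt2 and Asns, and EtOH replicate 2 was the highest EtOH library for Psat1 and the lowest for the other enzymes. The median log2 difference within same-numbered pairs was −1.48, 1.01 and −1.61 over the 6 enzymes in pairs 1, 2 and 3, against −0.05, 0.00 and −0.05 over all genes tested. The log2 fold changes of the 6 ran from −1.27 to −0.37 with adjusted p from 0.387 to 0.817. Without TAM replicate 2 they were lower for each, as −1.64 for Mthfd2, −1.48 for Shmt2, −1.21 for Phgdh, −0.99 for Psph and −0.77 for Asns. Without TAM replicate 3 the sign turned for Phgdh (0.10). With the block and without replicate 3 of both groups it turned for Asns (0.040), Phgdh (0.11) and Psph (0.052), and without replicate 1 of both groups for Psph (0.17).

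The amino acid transporters were mixed. Slc7a5 (LAT1, which carries large neutral amino acids) was at 4143, 2528 and 5193 in EtOH and at 1351, 2648 and 1244 in TAM cells, with TAM replicate 2 above EtOH replicate 2 (−1.20, SE 0.37, adjusted p = 0.251). Slc3a2, the heavy chain that LAT1 and xCT both need, was at 3711, 6170 and 3749 in EtOH and at 2989, 3086 and 2570 in TAM cells, with no overlap (−0.62, SE 0.24, adjusted p = 0.334, and −0.38 without EtOH replicate 2). A repeat makes up 7.39% of its transcript. Slc7a11 (xCT, the cystine importer) had overlapping groups, at 271, 155.5 and 184 in EtOH and 257, 200.2 and 79.6 in TAM cells (−0.30, adjusted p = 0.819).

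**Figure D3:**
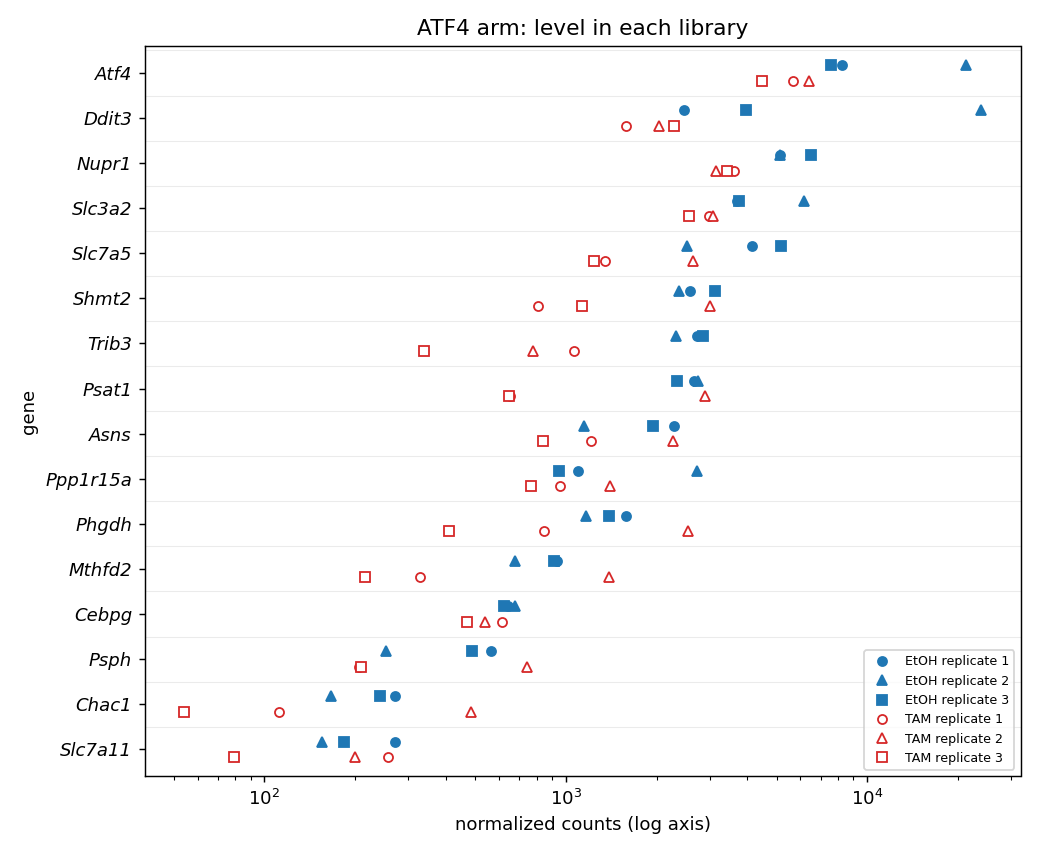
Normalized counts (log axis) of the 16 ATF4 members in each of the 6 libraries, EtOH filled and TAM open, with 1 marker shape for each replicate number. TAM replicate 2 (open triangle) is the highest TAM value for 11 of 16 genes, among them all 6 amino acid and one-carbon enzymes, and EtOH replicate 2 stands far to the right for Atf4 and Ddit3.

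The pairs of same-numbered libraries can be read arm by arm. In pairs 1 and 3 all 37 members were lower in TAM, where 54.8% and 55.8% of all genes were. In pair 2, 26 of 37 were lower (19 of 21 UPR and 7 of 16 ATF4), where 50.0% of all genes were. The median log2 difference of the UPR arm was −0.67, −0.45 and −0.55 in pairs 1, 2 and 3, and that of the ATF4 arm was −0.90, 0.07 and −1.22. Members lower in all 3 pairs numbered 26, 19 of them in the UPR arm, against 23.6% of all genes. The difference between the arms was not tested. EtOH replicate 2 was the highest EtOH library for 17 of 37 members and TAM replicate 2 the highest TAM library for 27 of 37, against 40.1% and 42.4% of all genes.

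Both libraries numbered 2 also carried the least weight when limma estimated a weight for each library, 0.292 for EtOH and 0.288 for TAM against 0.931 to 4.06 for the others. The weight was 0.931 for TAM replicate 1 and 4.06 for TAM replicate 3, so the TAM side of this fit rested mostly on TAM replicate 3. With these weights 14 members were called lower, 8 UPR (Dnajb9, Edem1, Herpud1, Hspa5, Hyou1, Manf, Pdia6 and Xbp1) and 6 ATF4 (Mthfd2, Nupr1, Psat1, Shmt2, Slc7a5 and Trib3), and 0 higher. Of all genes, 3.00% were called lower and 3.25% higher by this fit. Without replicate 2 of both groups and with the block, a fit chosen after seeing the data, 19 members were called lower (9 UPR and 10 ATF4) and 0 higher, where 3.32% of all genes were called lower and 4.10% higher. Only 2 libraries per group remained in it, so the spread of each gene was measured on few libraries. That fit changed both the block and the libraries, and the block alone called 1 member, while without the block 0 were called without EtOH replicate 2 and 1 without TAM replicate 2. In both of the latter fits all 37 members had a log2 fold change below 0.

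**Figure D4:**
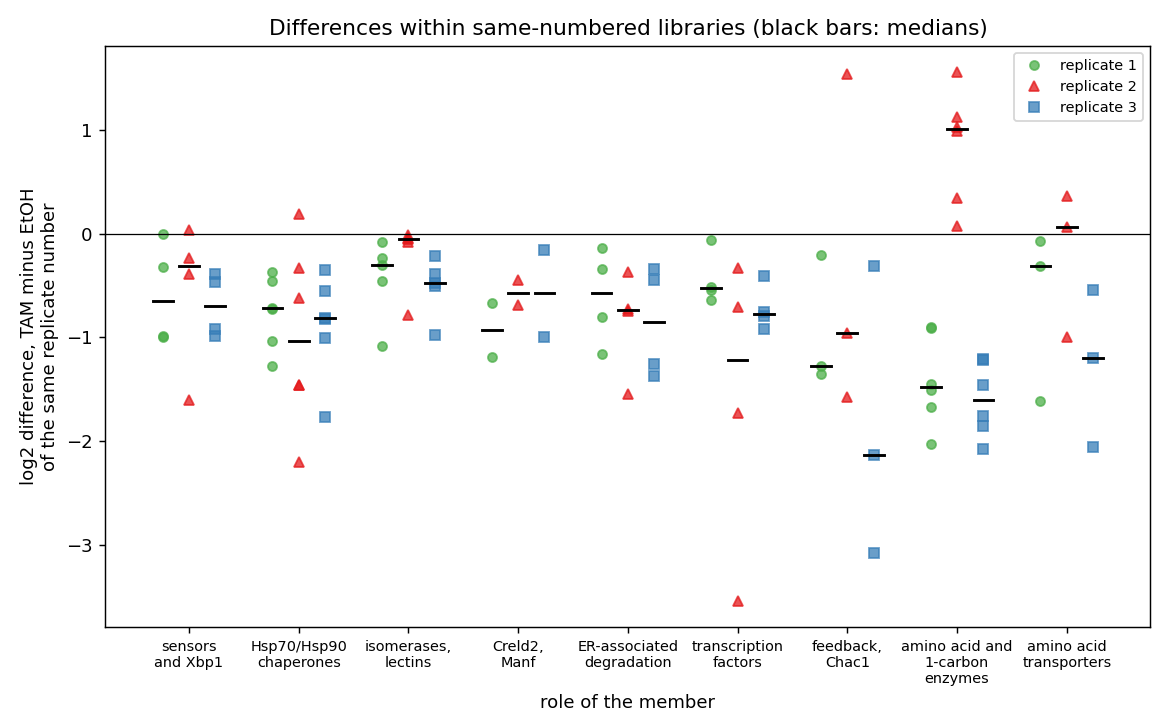
Log2 difference (TAM minus EtOH, log2(normalized counts + 1)) of the tested members within each pair of same-numbered libraries, by role of the member. In pair 2 the 6 amino acid and one-carbon enzymes lie above 0, with a median of 1.01, while 19 of 21 UPR members lie below 0.

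Per kilobase of exon, which allows levels of different genes to be compared, the EtOH mean was highest for Hspa5 at 10297 normalized counts, followed by Hsp90b1 at 8129, Atf4 at 7171 and Ddit3 at 5879. These leading genes were not separated beyond their spread, since EtOH libraries ranged from 6400 to 17267 for Hspa5, from 5391 to 13013 for Hsp90b1 and from 1442 to 13884 for Ddit3. In TAM cells Calr was highest at 4465, ahead of Pdia3 at 3655 and Hsp90b1 at 3592, whose libraries also overlapped. The lowest means were those of Slc7a11, at 18.1 in EtOH and 15.9 in TAM cells, and of Derl3, at 33.4 and 5.21, where the EtOH mean of Derl3 rested on replicate 2.

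Other genes of the same pathways were taken from lists outside the 38. Of 54 other UPR and ER folding genes tested, 42 had a log2 fold change below 0 (53.8% of all genes), with a median of −0.30. Limma called 0 of them with or without the block. At an unadjusted p under 0.05, 11 were lower and 0 higher, against 6.70% and 6.67% of all genes. With library weights 8 were called lower (3.00% of all genes), and with the block without replicate 2 of both groups 6 were (3.32% of all genes). Ero1l, the oxidase that recharges the disulfide isomerases, was at 3559, 60574 and 4587 in EtOH and at 1836, 2430 and 2155 in TAM cells, so EtOH replicate 2 stood apart here as for Ddit3 (−2.23, SE 0.99, adjusted p = 0.394). Fkbp2, a prolyl isomerase of the ER, was at 393, 427 and 381 in EtOH and at 178, 269 and 204 in TAM cells (−0.90, SE 0.21, adjusted p = 0.162). Derl1, a derlin, was at 4386, 6054 and 5790 and at 2342, 3570 and 3111 (−0.85, SE 0.23, adjusted p = 0.203).

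Of 39 other ATF4 targets and amino acid response genes tested, 37 had a log2 fold change below 0 (53.8% of all genes), with a median of −0.68. None was called without the block (14 lower and 0 higher at an unadjusted p under 0.05, against 6.70% and 6.67% of all genes). With the block 4 were called lower (Aldh1l2, Mthfd1l, Fgf21 and Cdsn), against 0.615% of all genes. Of these, Mthfd1l had overlapping groups, at 587, 1879 and 460.5 in EtOH and at 205, 693 and 224 in TAM cells (−1.33, adjusted p = 0.438 without the block). With library weights 17 were called lower (3.00% of all genes), and with the block without replicate 2 of both groups 22 were (3.32% of all genes). Fgf21, a secreted metabolic hormone, was at 153, 376 and 183 in EtOH and at 33.1, 34.3 and 27.7 in TAM cells. Its log2 fold change was −2.76 (SE 0.37, adjusted p = 0.0524, and 0.0345 with the block). Aldh1l2, a mitochondrial folate enzyme, was at 5752, 10382 and 8798 in EtOH and at 1255, 2120 and 914 in TAM cells (−2.58, SE 0.36, adjusted p = 0.0544, and 0.0274 with the block). These values did not overlap, and TAM replicate 2 did not reach the EtOH range as it did for Psat1. Cdsn, known as an adhesion protein of the outer skin layer, was at 183, 331 and 265 and at 47.3, 111 and 86.8 (−1.70, SE 0.38, adjusted p = 0.149, and 0.0383 with the block). When replicate 1, 2 or 3 of both groups was left out of the fit with the block, the adjusted p of Aldh1l2 was 0.0189, 0.00893 and 0.0323. Fgf21 was not called without replicate 3 (0.0576), and Cdsn and Mthfd1l were called without replicate 2 but not without replicate 1 (0.0983 and 0.130) or replicate 3 (0.167 and 0.146).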

How the data were processed

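Poly(A) RNA of 3 TAM and 3 EtOH samples was sequenced. The authors mapped reads to mm9 with TopHat, counted reads per gene with htseq-count and normalized with TMM in edgeR (versions not given in the sources used here). The deposited signal is normalized counts per gene, whose scaling is not stated, so limma 3.58.1 (R 4.3.3, intensity trend) was used on log2(value + 1) in place of a count test. Genes with at least 1 c.p.m. (16.2 normalized counts) in at least 3 libraries were tested, with Benjamini-Hochberg adjustment over all 11877 and a threshold of 0.05. Read depth is unknown for most libraries, so no counting intervals are given.

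Deviations of same-numbered libraries correlated at 0.24, 0.29 and 0.42 (other pairs −0.31 to 0.04), so the replicate number was also fitted as a block. The pairing comes from the numbers in the labels. The members and lists were chosen with earlier results of these data known. Values in every library are given for members that were called, did not overlap between groups or are sensors or transcription factors, and for some others. From each pathway list up to 3 genes were chosen by a rule, called ones first, and some others are also named. Copies were sought with BLAST 2.17.0 (95% identity, 100 bases). The model was also run on simulated data in which every library had the same spread. The real libraries had weights from 0.288 to 4.06, so that run does not show how the model performs on them. Alternatives covered scaling, filter, pseudocount, block, library weights and libraries left out.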

Additional observations from a re-analysis of the deposited data

How the results depend on the processing

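Across scalings, filters, pseudocounts, the block, library weights and libraries left out, the median log2 fold change of the UPR arm ran from −0.64 to −0.35 and that of the ATF4 arm from −1.19 to −0.42, and no member was called higher. Members called lower numbered 0 in both arms, except in the fits that follow. In the UPR arm 1 was called with the block (also with no filter, median-ratio, quantile or library-sum scaling beside it), 8 with library weights and 0, 9 and 0 with the block without replicate 1, 2 or 3. In the ATF4 arm 6 were called with weights, 0 to 1 without 1 library, and 1, 10 and 0 with the block without replicate 1, 2 or 3. Without replicate 1 of both groups the ATF4 member called was Trib3. Over all genes, 20 were called higher and 9 lower. These became 119 and 73 with the block, 386 and 356 with weights, 12 and 5 with no filter, and 0 to 6 and 0 to 9 without 1 library, and 4 were lower with a minimum of 10 in every library. With the block they became 125 and 80 with no filter, 111 and 63 with median-ratio scaling, 110 and 68 with quantile normalization, 136 and 57 with library-sum scaling, and without replicate 1, 2 or 3 of both groups 85, 472 and 52 and 57, 383 and 36. Signs reversed for Pdia3 under quantile normalization (0.0036, with and without the block). They also reversed without TAM replicate 3 for Chac1, Phgdh and Slc7a11, whose values without 1 library ran from −1.50 to 0.071, from −1.21 to 0.10 and from −0.64 to 0.20, and with the block without replicate 3 for Chac1 (0.13), Asns (0.040), Phgdh (0.11), Psph (0.052) and Slc7a11 (0.14), or without replicate 1 for Psph (0.17). Library-sum scaling moved the median of all genes by 0.11, and all 37 members stayed below 0. The causes were not tested. Fits that pair the block with another choice were added after seeing the data, and those without 1 replicate of both groups hold only 2 libraries per group.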

Other observations

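The kinases and phosphatases of eIF2α and its exchange factor set ATF4 translation. A list of such genes outside the members also held the eIF2 subunits Eif2s1, Eif2s2 and Eif2s3x and the adaptor Nck1. Of its 14 genes, all tested, 5 had a log2 fold change below 0 (53.8% of all genes), with a median of 0.13. Limma called 0 without the block (0.0758% of all genes lower and 0.168% higher) and 0 with it (0.615% and 1.00%). At an unadjusted p under 0.05, 0 were lower and 0 higher, against 6.70% and 6.67% of all genes, shares at which few of 14 genes would be called. With library weights 0 were called as well, against 3.00% of all genes lower and 3.25% higher. With the block without replicate 2 of both groups 1 was called higher, the amino acid sensing kinase Eif2ak4 (log2 fold change 0.71, SE 0.13, adjusted p = 0.0418), where 4.10% of all genes were. Eif2ak4 was at 649, 1085 and 485 normalized counts in EtOH and at 1023, 619 and 827 in TAM cells, with overlapping groups. Eif2ak2, which encodes the kinase PKR that senses double-stranded RNA, was at 962.0, 626 and 1217 normalized counts in EtOH and at 1445, 1275 and 1384 in TAM cells (log2 fold change 0.60, SE 0.26, adjusted p = 0.377). Eif2b4, a subunit of the exchange factor eIF2B, was at 309, 276 and 293 in EtOH and at 313, 383 and 330 in TAM cells (0.22, SE 0.18, adjusted p = 0.637). For both genes every TAM value lay above every EtOH value, as for 9.19% of all genes.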
